A study of Mus musculus with 3 samples.

Results

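The genes described here are the dual-specificity MAP kinase phosphatases Dusp1, Dusp2, Dusp4, Dusp5, Dusp6, Dusp7, Dusp8, Dusp10, Dusp14 and Dusp16. They were selected by gene symbol, and all 10 were found among the 55536 annotated genes measured. These enzymes remove phosphate from both the threonine and the tyrosine of the activation loop of MAP kinases (ERK, p38 and JNK), and so switch the kinases off. Several are made in response to the same signals that activate the kinases, which forms a negative feedback loop. In macrophages that sense bacterial products through Toll-like receptors, Dusp1 is the best known of them, as a brake on p38 and JNK and on cytokine production.

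All 3 libraries belong to a single group. Bone-marrow-derived macrophages of C57BL/6J mice were given 100 ng/ml Lipid A, the Toll-like receptor 4 agonist of bacterial lipopolysaccharide, for 12 hours, kept without it for 12 hours, and given 100 ng/ml Lipid A again for 50 minutes. RNA of the chromatin fraction, which holds nascent and chromatin-retained RNA, had its ribosomal RNA removed and was made into total RNA libraries from 1 µg (replicate 1), 250 ng (replicate 2) or 500 ng (replicate 3). Cells without Lipid A or with a single exposure were not analysed here, so every value is a level and none is a response. The libraries carry biological replicate numbers but name the same donor, so the spread between them may be technical.

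The 3 libraries held 13897176, 19597343 and 19348626 expected counts in replicates 1, 2 and 3. The macrophage label was matched by 7 of 7 macrophage marker genes, whose summed level was 1097 to 1328 TPM, the share of transcripts scaled to a fixed total. None of 18 marker genes of neutrophils, B cells, T cells, dendritic cells and fibroblasts reached 1 TPM in every library. Their summed level was at most 1.65 TPM for any of these cell types, with Elane, Cd3d and Cd3e at 0 in all 3 libraries. The read-based tables differed for Cd3d, which had 12.5, 15.6 and 18.8 TPM there. Zbtb46, a dendritic cell marker, also exceeded 1 TPM in every library of the read-based tables. Mpo, Ms4a1, Clec9a, Col1a1, Col1a2 and Pdgfra exceeded 1 TPM there in some libraries but not in all. Values below are TPM from the alignment-based tables, which are corrected for transcript length and so can be compared between genes. In such bulk samples fewer expressing cells and less RNA per cell cannot be told apart.

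Dusp1 and Dusp2 had most of their TPM in transcripts that keep an intron, so the junctions of those introns are shown first. The pieces were cut from the GENCODE M21 transcript sequences (mm10). Each line runs 5′ to 3′ on the transcribed strand and holds 20 exon bases and 60 intron bases, and the capitals mark the GT that opens the intron or the AG that closes it.
Dusp1-203, start of intron 2, chr17:26507514-26507593, minus strand: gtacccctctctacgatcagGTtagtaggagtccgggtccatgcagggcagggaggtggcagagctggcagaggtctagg
Dusp1-203, end of intron 2, chr17:26507185-26507264, minus strand: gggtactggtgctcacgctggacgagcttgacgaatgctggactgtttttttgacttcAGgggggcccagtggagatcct
Dusp1-204, start of intron 3, chr17:26506925-26507004, minus strand: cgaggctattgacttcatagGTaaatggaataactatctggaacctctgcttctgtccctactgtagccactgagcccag
Dusp1-204, end of intron 3, chr17:26506631-26506710, minus strand: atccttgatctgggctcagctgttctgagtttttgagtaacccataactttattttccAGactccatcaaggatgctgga
Dusp2-202, start of intron 2, chr2:127336879-127336958, plus strand: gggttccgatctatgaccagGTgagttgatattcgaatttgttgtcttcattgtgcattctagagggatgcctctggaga
Dusp2-202, end of intron 2, chr2:127337189-127337268, plus strand: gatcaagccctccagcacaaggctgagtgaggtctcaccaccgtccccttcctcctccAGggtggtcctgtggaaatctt

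Of the 10 phosphatase genes, 7 reached 1 TPM in all 3 libraries, the level called detected here. The same held for 39.2% of 22028 protein-coding genes and for 20.2% of all annotated genes. The median of the members' mean levels was 3.25 TPM, against 0.367 TPM over all protein-coding genes and 9.95 TPM over the 8638 detected ones. The signal was concentrated in a few members. Dusp1 and Dusp2 together held 83.1% of the summed mean TPM of the 10 genes, and with Dusp16 added the share was 93.5%. These are shares of gene totals and depend on the measure. In protein-coding transcripts alone Dusp2 (53.8 TPM) and Dusp16 (32.7 TPM) led, and Dusp1 (8.30 TPM) lay below Dusp4 (10.2 TPM). In the read-based tables Dusp16 had 62.3 TPM, against 121 TPM for Dusp1 and 120 TPM for Dusp2.

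**Figure D1:**
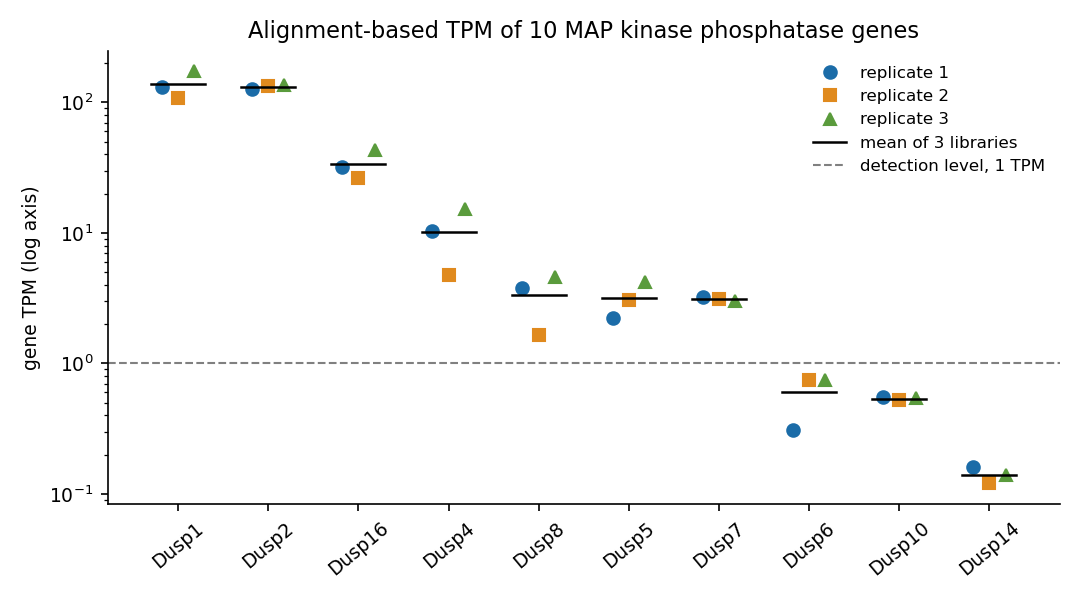
Gene TPM (log axis) of the 10 phosphatase genes in replicates 1, 2 and 3, ordered by mean level, with a black bar at the mean and a dashed line at 1 TPM. Dusp1 and Dusp2 lie above 100 TPM in every library, and Dusp6, Dusp10 and Dusp14 lie below 1 TPM in every library.

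The 4 nuclear, stimulus-inducible phosphatases (Dusp1, Dusp2, Dusp4 and Dusp5) were all detected and summed to 283 ± 41.0 TPM (SD, n = 3). Dusp1, which acts on p38, JNK and ERK, is annotated on the minus strand of chromosome 17 (26505590 to 26562128, mm10, ENSMUSG00000024190.7). It had 132, 107 and 173 TPM in replicates 1, 2 and 3, a mean of 138 ± 33.2 (SD, n = 3) from 2704, 2468 and 4017 expected counts. Its level was lowest in replicate 2 and highest in replicate 3. The annotated span of 56.5 kb is set by Dusp1-201 and Dusp1-205, both at 0 TPM in all 3 libraries, and includes Ergic1 on the other strand. No source used here says whether strand was used in counting, so reads of such overlaps are uncertain.

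Dusp2, a phosphatase of ERK and p38 found mainly in blood and immune cells, is a compact gene of 2.22 kb on the plus strand of chromosome 2 (127336159 to 127338376, ENSMUSG00000027368.6). It had 127, 133 and 135 TPM in replicates 1, 2 and 3, and the mean was 132 ± 4.27 (SD, n = 3). These libraries lay close together, and all 3 values fell inside the range of Dusp1. On the log2(TPM + 1) scale the SD between libraries was 0.05 for Dusp2, lower than for all but 2.14% of the detected protein-coding genes, and 0.34 for Dusp1, at the 62.1 percentile. For Dusp2 this SD was larger in the read-based tables, at 0.10, in TMM-scaled counts, at 0.17, and with DESeq2 size factors, at 0.18.

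Dusp4, a nuclear phosphatase of ERK and JNK on chromosome 8 (34807297 to 34819894, plus strand, ENSMUSG00000031530.6), had 10.4, 4.75 and 15.3 TPM in replicates 1, 2 and 3, from 362, 213 and 635 expected counts. Its mean was 10.2 ± 5.30 TPM (SD, n = 3), and its 3 libraries stood clearly apart. The SD of log2(TPM + 1) was 0.77, at the 98.0 percentile of the detected protein-coding genes. In edgeR, which moderates each gene towards the others, the biological coefficient of variation of the counts was 36.6% for Dusp4, the highest of the 9 members that passed its filter, 23.7% for Dusp2, the lowest, and 28.1% over all 13184 genes kept. Dusp5, an ERK-specific nuclear phosphatase on chromosome 19 (53529109 to 53542431, plus strand, ENSMUSG00000034765.6), had 2.24, 3.06 and 4.21 TPM from 70, 122 and 156 expected counts. An antisense gene overlaps Dusp5, so its value is uncertain for the same reason as that of Dusp1.

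Of the cytoplasmic phosphatases of ERK, Dusp7 was detected and Dusp6 was not, and the pair summed to 3.70 ± 0.166 TPM (SD, n = 3). Dusp7 (chromosome 9, 106368632 to 106375724, plus strand, ENSMUSG00000053716.9) had 3.22, 3.11 and 2.98 TPM in replicates 1, 2 and 3. These values differed little, with an SD of log2(TPM + 1) of 0.04, at the 1.66 percentile, but the SD was 0.35 in the read-based tables. Dusp6, a widely used readout of ERK signalling on chromosome 10 (99263231 to 99267489, plus strand, ENSMUSG00000019960.8), had 0.31, 0.75 and 0.74 TPM from 11, 33 and 12 expected counts. All 3 values were above the 0.0843, 0.0680 and 0.186 TPM that 3 counts would give in replicates 1, 2 and 3. Such floors cover counting error only.

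Of the 3 phosphatases that prefer JNK and p38, Dusp16 and Dusp8 were detected and Dusp10 was not, with a sum of 37.5 ± 9.94 TPM (SD, n = 3). Dusp16, which shuttles between nucleus and cytoplasm and acts on JNK, spans 77.2 kb on the minus strand of chromosome 6 (134715468 to 134792625, ENSMUSG00000030203.17). It had 31.8, 26.2 and 43.0 TPM in replicates 1, 2 and 3, a mean of 33.7 ± 8.56 (SD, n = 3). As for Dusp1, replicate 2 was lowest and replicate 3 highest. Dusp8 (chromosome 7, 142079490 to 142095843, minus strand, ENSMUSG00000037887.11) had 3.75, 1.65 and 4.56 TPM, with the same order of libraries. Its SD of log2(TPM + 1) was 0.56, at the 91.1 percentile.

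Dusp10 (chromosome 1, 184013302 to 184075636, plus strand, ENSMUSG00000039384.8), a phosphatase of p38 and JNK, stood at 0.55, 0.52 and 0.54 TPM from 19, 24 and 23 expected counts. The levels were even but rested on few reads. A gene on the other strand overlaps Dusp10, and another overlaps Dusp8. Dusp14, a small atypical member without the MAP kinase-binding domain of the others, lies on chromosome 11 (84048041 to 84069261, minus strand, ENSMUSG00000018648.15). It had 3, 1 and 3 expected counts in replicates 1, 2 and 3, at or under the limit of 3 counts that a count of 0 allows, so its expression was not detectable at this depth.

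By mean level the order was Dusp1, Dusp2, Dusp16, Dusp4, Dusp8, Dusp5, Dusp7, Dusp6, Dusp10 and Dusp14. Of the 9 neighbouring pairs in this order, 5 had the same sign of difference in 3 of 3 libraries, and in these 5 the ranges of the libraries did not overlap. They were Dusp2 over Dusp16 (mean difference of log2(TPM + 1) 1.96 ± 0.33, SD, n = 3 libraries), Dusp16 over Dusp4 (1.73 ± 0.44), Dusp4 over Dusp8 (1.31 ± 0.22), Dusp7 over Dusp6 (1.37 ± 0.27) and Dusp10 over Dusp14 (0.43 ± 0.01). The size of the last difference is set by the pseudocount, since Dusp14 had at most 3 counts, and it was 1.41 with a pseudocount of 0.1. With 3 libraries the exact two-sided sign-flip test cannot go below p = 0.25, which these 5 pairs reached, and the value adjusted over 9 pairs by Benjamini-Hochberg was 0.45. The pairs were set by the mean levels in these same libraries, so the test is no independent check of the order. For the first 4 of them the deposited credible intervals, which belong to the posterior mean TPM, were apart in every library. The other 4 neighbouring pairs changed order between libraries, with exact p of 0.75 for Dusp1 and Dusp2 and of 1 for the rest. Dusp1 minus Dusp2 was 0.06, -0.30 and 0.35 in replicates 1, 2 and 3. Dusp8, Dusp5 and Dusp7, between 3.10 and 3.32 TPM on average, could not be ordered, nor could Dusp6 and Dusp10.

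The class of transcript separated Dusp1 and Dusp2, whose gene totals could not be ordered. The annotation sorts transcripts into classes such as protein coding and retained intron, the second being a form that keeps an intron and is not given a coding sequence. In the RNA of Dusp1, 98.6%, 93.8% and 90.5% of TPM in replicates 1, 2 and 3 lay in retained-intron transcripts. In that of Dusp2 the shares were 67.7%, 58.9% and 51.4%. The share was higher for Dusp1 in every library, and the ranges of the libraries did not overlap. Of the 7 detected members, Dusp1, Dusp2 and Dusp16 have an annotated retained-intron transcript, and 2 of these 3 had over 50% of their TPM in that class. The same held for 39.1% of 5705 detected protein-coding genes with such a transcript, whose median share was 43.5%. Dusp1, with a mean share of 94.3% ± 4.07 (SD, n = 3), stood at the 99.2 percentile of those genes. Dusp2, with 59.3% ± 8.14, stood at the 74.8 percentile, and Dusp16, with 1.68% ± 1.81, at the 1.44 percentile. These shares follow the annotated class only. Nascent RNA of the chromatin fraction can still be unspliced, so its reads may have been assigned to retained-intron transcripts, which was not tested. Dusp16-204, which held 60.6% of the Dusp16 TPM, is classed as protein coding although its last exon runs on into an intron.

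**Figure D2:**
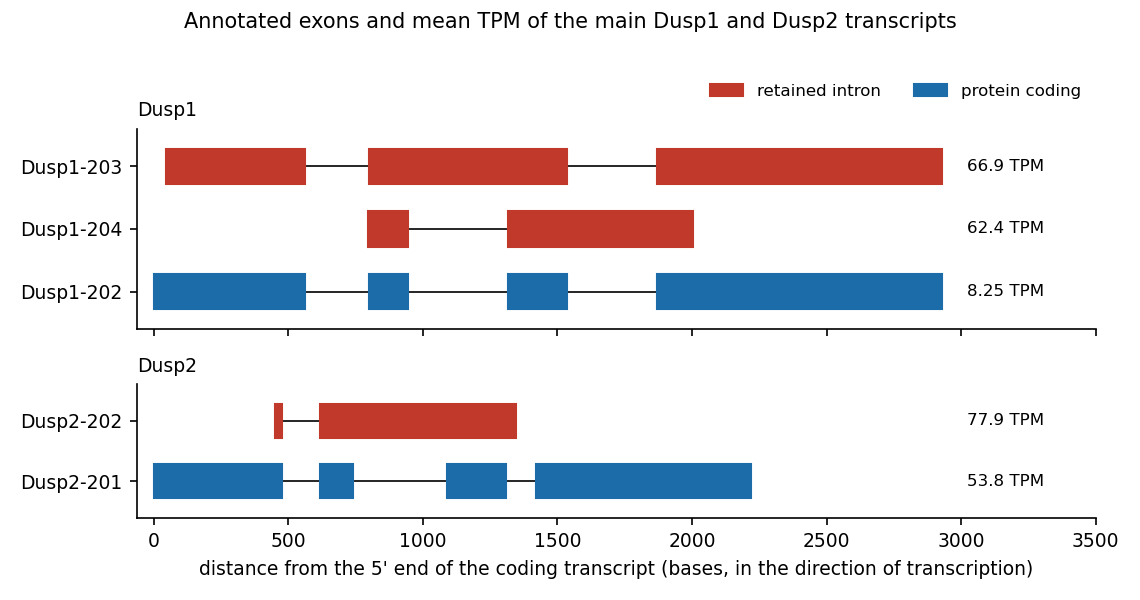
Annotated exons (boxes) of the main Dusp1 and Dusp2 transcripts by distance in bases from the 5′ end of the coding transcript, with the mean TPM over 3 libraries at the right. The retained-intron forms Dusp1-203, Dusp1-204 and Dusp2-202 (red) lie at 66.9, 62.4 and 77.9 TPM, against 8.25 TPM for the coding Dusp1-202 and 53.8 TPM for the coding Dusp2-201 (blue).

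The retained-intron signal of Dusp1 was assigned to a pair of annotated transcripts that keep different introns. Dusp1-203 keeps intron 2 of 369 bases (26507205 to 26507573 on chromosome 17) and had 73.7, 45.2 and 81.9 TPM in replicates 1, 2 and 3. Dusp1-204 keeps intron 3 of 334 bases (26506651 to 26506984) and had 56.9, 55.5 and 74.9 TPM. The fully spliced coding form Dusp1-202 had 1.84, 6.49 and 16.4 TPM. It was below both retained-intron forms in every library. The 4 junctions of these introns are the Dusp1 lines printed above, and coding exons flank them.

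Dusp2-202 keeps intron 2 of 350 bases (127336899 to 127337248 on chromosome 2) and had 85.9, 78.3 and 69.5 TPM in replicates 1, 2 and 3. The coding Dusp2-201 had 41.0, 54.5 and 65.7 TPM. The coding form was lower in TPM in every library, but in replicate 3 by a small margin. Expected counts, which are not corrected for length, went the other way in every library. Dusp2-201, of 1617 bases, had 805, 1338 and 1493 in replicates 1, 2 and 3. Dusp2-202, of 756 bases, had 685, 706 and 586. The even total of Dusp2 thus combined a retained-intron form that was highest in replicate 1 with a coding form that was highest in replicate 3. In both Dusp1 and Dusp2 the retained-intron share was highest in replicate 1 and lowest in replicate 3, an order shared by 29.5% of the 5705 genes. The median share over those genes was 44.6%, 46.4% and 39.6% in replicates 1, 2 and 3.

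Counted in protein-coding transcripts alone, Dusp1 had 8.30 ± 7.42 TPM and Dusp2 53.8 ± 12.4 TPM (SD, n = 3 each). Dusp1 minus Dusp2 was then -2.90 on the log2(TPM + 1) scale, against 0.04 for the gene totals. The read-based tables gave nearly the same split, with 92.9% ± 2.46 of Dusp1 and 59.1% ± 6.78 of Dusp2 in retained-intron transcripts (SD, n = 3). Dusp4 and Dusp5 each have 1 annotated transcript, which is coding, so the tables have no entry for an intron-containing form of either.

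**Figure D3:**
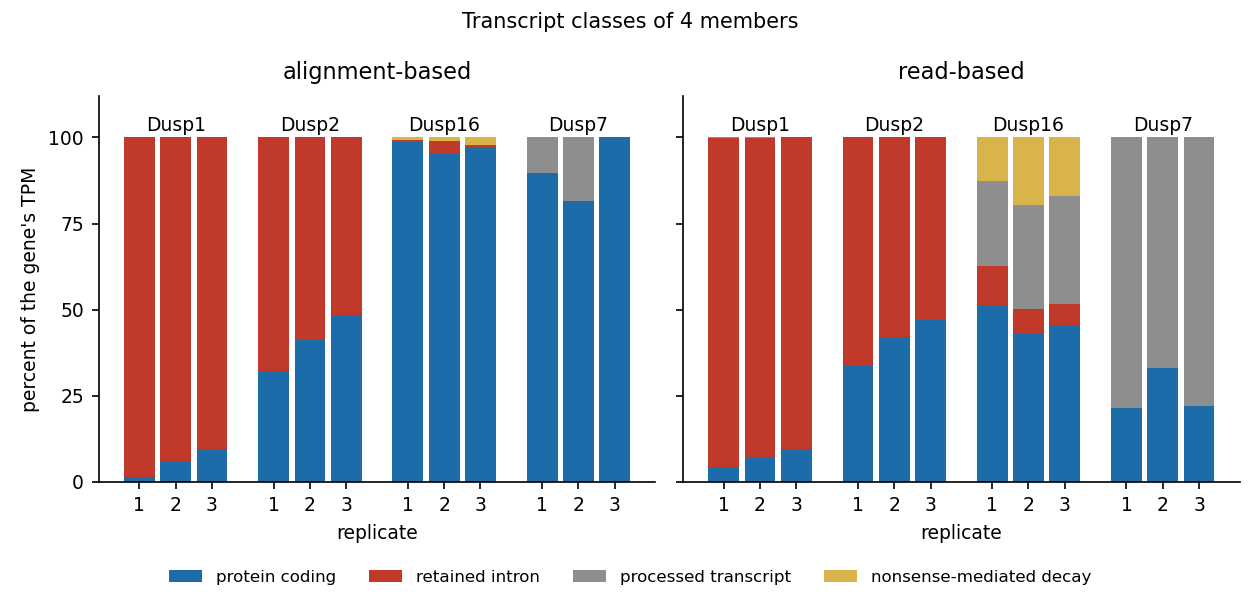
Percent of each gene's TPM by annotated transcript class for Dusp1, Dusp2, Dusp16 and Dusp7 in replicates 1, 2 and 3, from the alignment-based (left) and read-based (right) tables. Retained-intron transcripts hold over 90% of Dusp1 in both tables, while coding transcripts hold at least 95.2% of Dusp16 and 81.7% of Dusp7 at left, and at most 51.3% of Dusp16 and 33.1% of Dusp7 at right.

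Dusp16 had 97.0% ± 1.75 of its TPM in protein-coding transcripts (SD, n = 3), but most of it in a shortened one. In the read-based tables these transcripts held 46.6% ± 4.23. Dusp16-204 held 60.6% ± 2.49 of the gene's TPM in the alignment-based tables and 30.2% ± 1.89 in the read-based ones. It had 18.8, 16.6 and 25.4 TPM in replicates 1, 2 and 3 of the alignment-based tables. Dusp16-201, a coding form of 7 exons, had 11.9, 5.86 and 9.26 TPM, and was lower in every library. Dusp16-204 has 4 exons. Its last exon starts as exon 4 of Dusp16-201 and then runs on for 2316 bases into an intron of 13816 bases, past the splice site shown here with 20 exon bases, 10 intron bases and the GT of the intron in capitals.
Dusp16-204, past exon 4, chr6:134739802-134739831, minus strand: agcgagatgtcctcaacaagGTgggtgctt
An antisense gene, Gm36328, overlaps Dusp16.

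Transcripts of the low members were spread over few reads. Dusp8-201, the long coding form, had 2.17, 1.65 and 3.49 TPM, and the short coding Dusp8-202 had 1.58, 0 and 1.07 TPM from at most 14.6 expected counts. Dusp7-201 held 61.8% ± 8.38 of the Dusp7 TPM and the coding Dusp7-203 28.6% ± 11.7 (SD, n = 3). For Dusp6, Dusp6-201 held all of the TPM in replicate 1, and the noncoding Dusp6-202 held 70.3% in replicate 3, from 4.42 expected counts. Dusp10-201 held 98.8% ± 2.10 of the Dusp10 TPM (SD, n = 3).

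How the members were quantified changed the level of some of them by more than the spread between libraries. The read-based mean was at least 1.5 times the alignment-based mean for 3 of the 7 detected members, Dusp7, Dusp16 and Dusp8, and for 35.6% of the detected protein-coding genes. Dusp7 had 15.4, 10.4 and 17.0 TPM in the read-based tables in replicates 1, 2 and 3, 4.59 times its alignment-based mean. Of that, 12.1, 6.94 and 13.2 TPM belonged to Dusp7-202, a noncoding transcript of 270 bases that had 0 TPM in all 3 alignment-based tables. Dusp16 had 59.4, 49.3 and 78.1 TPM in the read-based tables, a ratio of 1.85, with 18.0 ± 5.56 TPM in Dusp16-205 and 10.1 ± 2.88 TPM in Dusp16-203, short forms of 553 and 579 bases. Dusp16-204 itself was similar in both, at 18.7 ± 3.94 TPM in the read-based tables and 20.3 ± 4.58 TPM in the alignment-based ones (SD, n = 3 each). Dusp1 and Dusp2 were somewhat lower in the read-based tables, with ratios of 0.881 and 0.910.

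Replicate 3 was the highest library for most members. Of the 7 detected members, 6 were highest in replicate 3, against 21.9% of the detected protein-coding genes. Dusp7 was the exception. Of the 7, 4 genes, Dusp4, Dusp8, Dusp16 and Dusp1, were at least 1.5 times higher in replicate 3 than in replicate 2, against 6.67% of the detected protein-coding genes. Their ratios were 3.23 for Dusp4, 2.76 for Dusp8, 1.64 for Dusp16 and 1.61 for Dusp1. The median ratio was 1.61 over the 7 members and 0.873 over the detected protein-coding genes. The latter median is -0.20 on the log2 scale. Relative to that median the ratios were 3.70 for Dusp4, 3.16 for Dusp8, 1.88 for Dusp16, 1.85 for Dusp1, 1.58 for Dusp5, 1.17 for Dusp2 and 1.10 for Dusp7.

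**Figure D4:**
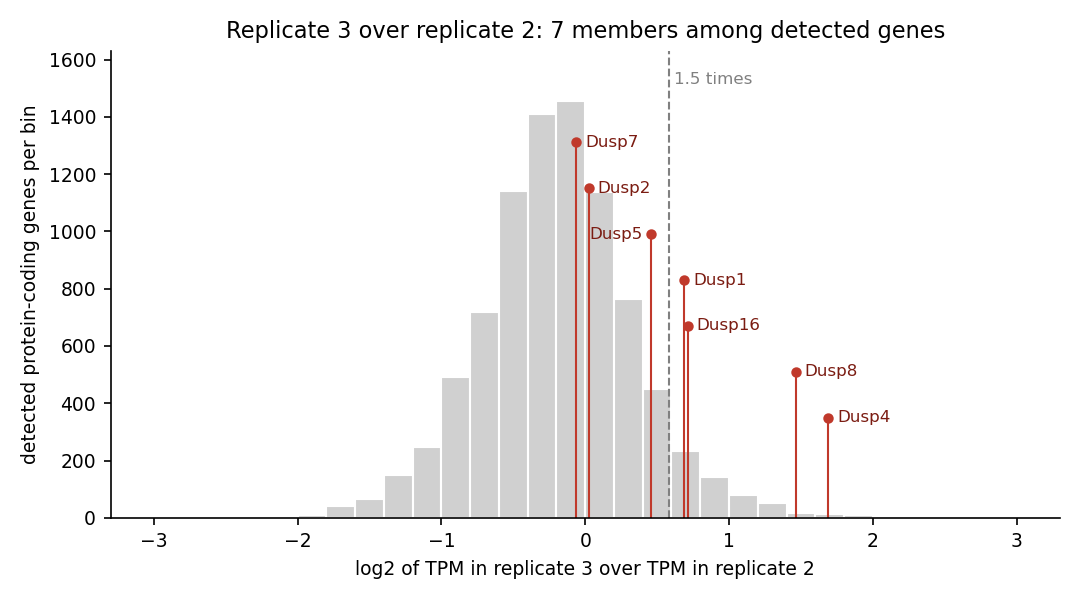
Distribution of the log2 ratio of TPM in replicate 3 over TPM in replicate 2 for the detected protein-coding genes (grey, genes per bin), with the 7 detected phosphatase genes marked in red at staggered heights for legibility and a dashed line at 1.5 times. Dusp1, Dusp16, Dusp8 and Dusp4 lie to the right of the line.

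Counts scaled by trimmed mean of M-values (TMM), chosen as a further check after the data were seen, gave 7 of 7 members highest in replicate 3, against 31.0% of the detected protein-coding genes. On that scale 5 of 7 were at least 1.5 times higher in replicate 3 than in replicate 2, against 11.2% of those genes. The read-based tables gave 6 of 7 highest in replicate 3, against 16.3% of genes, and 5 of 7 past 1.5 times, against 5.33%. Among the 36 detected genes of the 6 pathway lists below, 14 were highest in replicate 3 and 4 were past 1.5 times (Ppp2cb, Mapkapk2, Rps6ka2 and Rps6ka3, named because they are so few). Replicate 3 was made from 500 ng of RNA and replicate 2 from 250 ng. With 1 library at each amount, the amount and the library cannot be told apart.

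Genes outside the phosphatases with the levels most like those of the 3 highest members were found by the smallest root mean square difference of log2(TPM + 1) over the 3 libraries. For Dusp1 they were Ik (0.08), Nfkb2 (0.11) and Orai2 (0.12). Nfkb2, which encodes an NF-kB subunit, had 127, 120 and 165 TPM in replicates 1, 2 and 3. Ik, Nfkb2 and Orai2 all had the same order of libraries as Dusp1. Genes picked for levels close to Dusp1 in these same libraries tend to share that order, so it is no separate result. For Dusp2 they were Mmp14 (0.09), Snx10 (0.09) and Birc6 (0.09), and for Dusp16 Tmem256 (0.08), Fbxo11 (0.10) and Eif3c (0.11). The measure uses levels only, over 3 libraries.

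Promoter sequence was available for 9 of the 10 members, from RefSeq on build GRCm38.p6, as 250 bases before to 50 bases after the annotated start site. Dusp4 had no entry. The cyclic AMP response element TGACGTCA, which is its own reverse complement, occurred in the window of 2 members, Dusp1 and Dusp8, and in 1.79% of 32851 promoters. The CArG box, the motif of serum response factor, occurred in Dusp5 and in 1.63% of promoters, and the AP-1 motif TGANTCA in no member and in 7.81%. Both strands were covered, since these motifs read the same on either strand. A match is a description of letters and not evidence of binding. The stretches around the matches are shown 5′ to 3′ with the motif in capitals. Dusp1 holds 1 element at position -143, Dusp8 holds 2 at positions -107 and -63, and Dusp5 holds 2 adjoining CArG boxes at positions -82 and -72, with the start site counted as 0.
Dusp1, chr17:26508573-26508672, minus strand: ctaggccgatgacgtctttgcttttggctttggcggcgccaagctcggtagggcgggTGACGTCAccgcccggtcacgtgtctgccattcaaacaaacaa
Dusp8, chr7:142095310-142095409, minus strand: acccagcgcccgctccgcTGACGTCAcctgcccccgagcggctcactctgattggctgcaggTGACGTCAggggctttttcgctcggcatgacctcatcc
Dusp5, chr19:53529035-53529104, plus strand: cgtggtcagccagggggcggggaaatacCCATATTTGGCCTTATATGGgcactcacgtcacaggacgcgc
Dusp1 and Dusp8, which share the element, had mean levels of 138 and 3.32 TPM.

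The other genes of the pathway were read from 6 lists of 58 genes. Among 16 other dual-specificity phosphatases and catalytically inactive relatives, 4 were detected and the median was 0.455 TPM, against 3.25 TPM for the members. Dusp11, which acts on RNA, led them with 70.8 ± 6.16 TPM (SD, n = 3), and Dusp3, a small phosphatase of ERK and JNK, followed with 8.76 ± 0.590 TPM. Dusp21, Dusp26 and Styxl1 were listed at 0, although Styxl1 had 3.14 ± 0.216 TPM in the read-based tables. Of 8 other phosphatases that act on MAP kinases, 6 were detected, with a median of 3.54 TPM. Ppp2ca, a catalytic subunit of protein phosphatase 2A, had 35.5, 37.6 and 41.0 TPM in replicates 1, 2 and 3, and Ppm1b had 31.4 ± 1.13 TPM (SD, n = 3). Ptpn5 (0.320 ± 0.154 TPM) and Ptprr (listed at 0, but 5.90 ± 1.97 TPM in the read-based tables) were not detected.

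In gene totals, the kinases that the members act on stood below Dusp1 and Dusp2. Dusp1 had 8.30 TPM in protein-coding transcripts alone, and no such split was made for the kinases. Of 10 MAP kinase genes 7 passed the detection level, and the median over all 10 was 5.73 TPM. Mapk14, which encodes p38 alpha, had 26.0, 40.2 and 30.5 TPM in replicates 1, 2 and 3. It was highest in replicate 2, where Dusp1, Dusp4, Dusp8 and Dusp16 were lowest. Mapk10 (0.117 TPM), Mapk12 (0.140 TPM) and Mapk13 (listed at 0) were not detected. Of the 7 MAP kinase kinases 6 were detected, with a median of 21.3 TPM, led by Map2k2 (32.1 ± 10.8 TPM) and Map2k5 (30.0 ± 1.82 TPM), and Map2k6 was not (0.733 ± 0.582 TPM).

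All 10 kinases activated by MAP kinases were detected, and their median was 23.3 TPM. Mapkapk2, the kinase through which p38 stabilises cytokine messages, reached the level of the Dusp1 and Dusp2 gene totals with 146, 99.1 and 149 TPM in replicates 1, 2 and 3. It was also lowest in replicate 2. Mknk1 had 74.3 ± 17.0 TPM and Rps6ka2, the lowest of the list, 2.93 ± 0.716 TPM (SD, n = 3 each). Of 7 Sprouty and Spred genes, feedback inhibitors upstream of ERK, 3 were detected. Spred1 had 70.7 ± 19.1 TPM and Spred2 3.72 ± 0.895 TPM. The 4 Sprouty genes lay between 0.01 TPM (Spry4) and 0.58 TPM (Spry1) on average, with Spry2 at 0.513 and Spry3 at 0.0133 TPM, and none was detected.

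**Figure D5:**
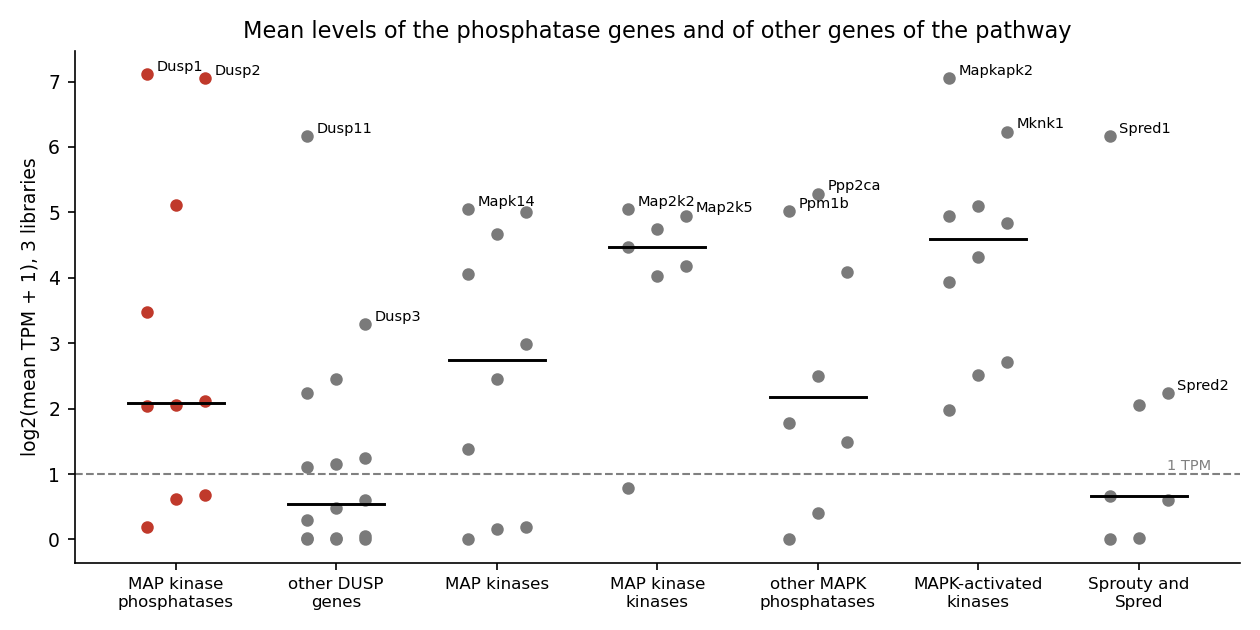
Mean level of each gene, as log2(mean TPM + 1) over 3 libraries, for the 10 phosphatase genes (red) and the 6 pathway lists (grey), with a black bar at each list's median, a dashed line at 1 TPM and some of the highest genes named. Dusp1 and Dusp2 lie with Mapkapk2 at the top, while the phosphatase median lies below those of the MAP kinase kinases and the MAP kinase-activated kinases.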

How the data were processed

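RNA of the chromatin fraction was sequenced in 3 libraries of 1 group, and group and replicate numbers were taken from the labels. Per the file headers, the deposited alignment-based tables hold expected counts, TPM, posterior mean TPM and the bounds of its credible interval, whose upper bound was treated as a signal value deposited by the authors with no fixed total. The read-based tables deposited by the authors hold estimated counts and TPM per transcript, summed here per gene. Reads were placed on mm10 with GENCODE M21 annotation, per the labels and the text deposited with each library. The sources used here name no aligner, counter or strand setting.

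The 10 members and the gene lists were chosen with earlier results of these data known. Named were all members, the highest 2 and lowest 1 of each list, the undetected genes of a list where there were 5 or fewer, the 3 genes most like each of the 3 highest members, and each member's highest transcript with any other of at least 10% of its TPM. A gene that this rule names is not reported here by name. Detection meant 1 TPM or more in all 3 libraries, logs were log2(TPM + 1), and neighbouring members were compared by an exact two-sided sign-flip test over libraries. Libraries differed far beyond counting noise (chi-square per degree of freedom of 41.6 to 103), so none was a repeat deposit. For scaled counts, expected counts were rounded and scaled with edgeR 4.0.16 (TMM) or DESeq2 1.42.0 (size factors) in R 4.3.3, and other steps used Python 3.11.15 with pandas 2.3.3. Functions were tested on simulated data. The labels mention no molecular identifiers, so counts of reads are not counts of independent molecules.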

Additional observations from a re-analysis of the deposited data

How the results depend on the processing

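The number of detected members was 7 with read-based TPM, posterior mean TPM and protein-coding transcripts and without any 1 replicate. It was 8 in CPM (counts scaled to a fixed total) or at a threshold of 0.5 TPM, and 6 at a threshold of 2 TPM. The median level of the members, 3.25 TPM, was 8.16 TPM in the read-based tables and 8.55 in CPM, which is not corrected for length, and 2.93 to 3.69 TPM without 1 replicate. Pairs of neighbouring members with the same sign in every library numbered 5 to 7 under all settings run. The difference in log2 values reversed for the following pairs. Dusp2 minus Dusp16 was -0.0139 in CPM. Dusp1 minus Dusp2 was -2.90 in protein-coding transcripts and -0.0183 in the read-based tables. Dusp5 minus Dusp7 was 0.11 in CPM and 0.11 in protein-coding transcripts, against -0.00346 for the gene TPM. These positive values go with the order by mean TPM, where Dusp5 stood above Dusp7. Dusp6 minus Dusp10 was -0.0445 in the read-based tables, -0.19 in CPM and -0.15 in protein-coding transcripts, and Dusp8 minus Dusp5 was -0.00719 with a pseudocount of 0.1. Without 1 replicate, Dusp1 minus Dusp2 ranged from -0.12 to 0.21, Dusp8 minus Dusp5 from -0.26 to 0.32, Dusp5 minus Dusp7 from -0.20 to 0.19 and Dusp6 minus Dusp10 from -0.0333 to 0.19. The cause was not tested, beyond what the settings leave out by construction. The median SD between libraries of the detected members was 0.34 to 0.50, and the number of members with over 50% of their TPM in retained-intron transcripts was 2 under each alternative run. No paired analysis was possible because there is 1 group. Depth limits Dusp6, Dusp10 and Dusp14, with at most 33 expected counts in any library.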
